A study of Mus musculus with 16 samples.

Results

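The G1 cyclins and CDK inhibitors are 10 genes of the G1 phase of the cell cycle, and they were picked by name from the 21640 genes with deposited read counts in mouse thyroid. They comprise the D-type cyclins Ccnd1, Ccnd2 and Ccnd3, the E-type cyclins Ccne1 and Ccne2, the CIP/KIP inhibitors Cdkn1a, Cdkn1b and Cdkn1c, and the INK4 inhibitor genes Cdkn2c and Cdkn2a. All 10 were found by Ensembl identifier, and all 10 passed the filter on low counts at both time points. Whole thyroids came from wild-type male C57Bl/6J mice that started a diet at 8 weeks of age. The control diet (CD) was chow, and the HF+SD combined high-fat food with sucrose water. Each diet has 4 mice at 3 weeks and 4 other mice at 6 weeks, which gives 16 libraries, 1 per mouse. The question was how each gene differed between the diets within each time point.

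D-type cyclins bind the kinases CDK4 and CDK6 when a cell receives growth signals, and these complexes phosphorylate the retinoblastoma protein, which releases E2F transcription factors. E-type cyclins, themselves E2F targets, then bind CDK2 and carry the cell into S phase. INK4 proteins block CDK4 and CDK6, whereas CIP/KIP proteins bind cyclin and kinase complexes more broadly. In thyrocytes, thyrotropin acts through cAMP and, together with insulin or IGF-1, drives entry into the cycle, and the D-type cyclins and Cdkn1b are known parts of that response.

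Library totals ran from 30025256 to 48508653 counts. Levels are CPM, a gene's counts per 1000000 counts of its library, with library sizes corrected by TMM factors (a trimmed mean of log ratios between libraries). The factors were computed within each time point. Genes of 12 thyrocyte markers took 4.89% to 14.9% of the counts at 6 weeks and 27.3% to 30.8% at 3 weeks. A set of 20 skeletal muscle genes took 0.0960%, 3.51%, 15.0% and 10.8% of the counts in CD mice M22, M43, M45 and M48 at 6 weeks, but 0.115% to 0.412% in the HF+SD mice at 6 weeks and 0.00108% to 0.00764% in all mice at 3 weeks. At 6 weeks all 20 of those genes were lower in HF+SD mice. The sum of 8 endothelial markers at 6 weeks was 312 to 397 CPM in CD mice and 1109 to 1246 CPM in HF+SD mice, and at 3 weeks it was 506 to 658 against 914 to 1356 CPM. No gene of these 3 lists was at 0 in every mouse of a group. In whole tissue, fewer cells of a type and less RNA per cell cannot be told apart.

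Promoters of 6 of the 10 genes were found in RefSeq (assembly GRCm38.p6), which has no entry in the table used for Ccnd1, Ccnd2, Ccne2 and Cdkn1c. The promoters of Ccne1 and Cdkn1b are shown because these genes passed the test at 1 time point each. Both run 5′ to 3′ on the gene's strand from 250 bases before the start of transcription to 50 bases after it. Capitals mark a match to the core of the cAMP response element, read on either strand. The Ccne1 window lies at chr7:38107441-38107740 on the minus strand, and the Cdkn1b window at chr6:134920151-134920450 on the plus strand.
Ccne1: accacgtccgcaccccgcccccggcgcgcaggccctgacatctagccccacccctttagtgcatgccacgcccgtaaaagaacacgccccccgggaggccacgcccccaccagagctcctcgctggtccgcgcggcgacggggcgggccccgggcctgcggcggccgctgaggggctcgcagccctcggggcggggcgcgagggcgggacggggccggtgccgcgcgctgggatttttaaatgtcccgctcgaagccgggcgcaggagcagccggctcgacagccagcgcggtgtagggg
Cdkn1b: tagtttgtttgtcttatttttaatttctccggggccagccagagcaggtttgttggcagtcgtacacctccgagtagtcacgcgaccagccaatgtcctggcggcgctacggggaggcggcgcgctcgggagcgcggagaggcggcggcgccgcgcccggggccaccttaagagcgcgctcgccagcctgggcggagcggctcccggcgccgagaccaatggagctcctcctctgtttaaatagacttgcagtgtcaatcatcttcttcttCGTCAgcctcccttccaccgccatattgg
The letters searched on both strands were TGACG for the cAMP response element core, which 20.8% of 32851 mouse promoters hold, and TTTCCCGC, TTTCGCGC, TTTGGCGC and TTTGCCGC for the E2F site, which 2.26% hold. The Cdkn1b window held the cAMP core once, on the minus strand and after the start site, and the Ccne1 window held neither. Both Ccnd3 promoters also held the cAMP core, and 1 of the 2 Cdkn2a promoters held TTTCCCGC. A match is a match of letters only.

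At 6 weeks, 3 of the 10 genes differed between the diets by edgeR's quasi-likelihood test (adjusted p under 0.05 over all genes). Ccnd1 and Ccne1 rose on the HF+SD and Cdkn1c fell. Of all 18249 genes tested 21.5% were called, with 12% higher and 9.55% lower. At 3 weeks, 3 genes were again called, with Ccnd1 higher and Cdkn1b and Cdkn1c lower, beside 14.9% of all 17238 genes tested, 9.07% higher and 5.78% lower. Ccnd1 and Cdkn1c were therefore called at both time points, and Ccnd2, Ccnd3, Ccne2, Cdkn1a, Cdkn2c and Cdkn2a at neither. With an absolute log2 fold change above 1 asked for as well, the count stayed at 3 at 6 weeks (12.6% of all genes) and was 0 at 3 weeks (4.66%). The median log2 fold change of the 10 genes was 0.13 at 6 weeks and -0.21 at 3 weeks, beside -0.01 and -0.01 over all genes.

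The CPM values of the diets did not overlap for 4 genes at 6 weeks, Ccnd1, Ccnd2, Ccne1 and Cdkn1c, where 23.8% of all genes tested did not overlap, and for 3 genes at 3 weeks, Ccnd1, Cdkn1b and Cdkn1c, where 23.6% did not. With 4 mice against 4, the exact two-sided permutation test cannot go below p = 0.0286. Directions are relative to TMM scaling. Scaling instead to 9 thyrocyte genes shifted all genes, with a median shift of -1.28 (6 weeks) and -0.80 (3 weeks) on the log2 scale, and then 0 of the 10 genes were called higher, while 7 were lower at 6 weeks, beside 83.3% of all genes, and 8 at 3 weeks, beside 75.6%. These counts are close to those shares.

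**Figure D1:**
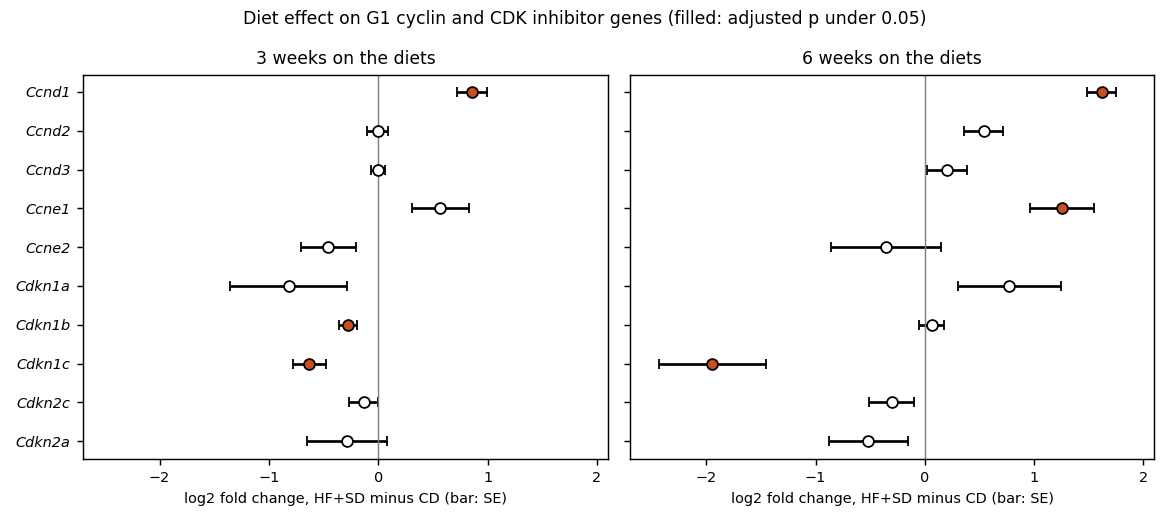
The log2 fold change of each gene, HF+SD minus CD, is on the horizontal axis, with its standard error as the bar, at 3 weeks on the left and 6 weeks on the right. Filled points passed the adjusted p threshold of 0.05, and the rightmost point in both panels is Ccnd1, at 0.86 and 1.62.

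Ccnd1 (ENSMUSG00000070348.6), which encodes cyclin D1, had the lowest p of the 10 genes at both time points. Its 6-week levels were 36.9, 33.9, 28.6 and 39.0 CPM in CD mice M22, M43, M45 and M48, and 100.4, 117, 103 and 104 CPM in the HF+SD mice M5, M18, M34 and M35. The lowest HF+SD mouse was thus far above the highest CD mouse. The means were 34.6 ± 4.52 and 106 ± 7.66 CPM (SD, n = 4), which is 3.07-fold, with a log2 fold change of 1.62 (SE 0.13, adjusted p = 0.000178). At 3 weeks the CD mice M53, M54, M55 and M96 had 79.5, 71.1, 55.3 and 56.5 CPM, and the HF+SD mice M7, M19y, M20y and M31 had 105, 106, 126 and 137 CPM. The diets did not overlap here either, although the CD mice lay closer to the HF+SD mice. The means were 65.6 ± 11.7 and 119 ± 15.6 CPM (SD, n = 4), with a log2 fold change of 0.86 (SE 0.14, adjusted p = 0.00371).

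The HF+SD levels of Ccnd1 in CPM were similar at the 2 time points, whereas the CD level at 6 weeks was 0.528 of that at 3 weeks. As the TMM factors were computed within each time point, these levels are not on 1 scale. They do not show which diet group moved. Levels were not tested between time points, since the number that opens the library names changes with them, and the 2 cannot be told apart. Leaving out any 1 mouse kept Ccnd1 past the threshold, at 1.52 to 1.68 at 6 weeks and 0.78 to 0.96 at 3 weeks. Adding a muscle score (the mean log2 CPM of the 20 muscle genes) to the model gave 1.52 at 6 weeks (adjusted p = 0.00122), and leaving out the CD mice M45 and M48 gave 1.59 (adjusted p = 0.00157). Scaling to thyrocyte genes used a set that itself rose on the HF+SD. Ccnd1 then kept its sign but was no longer past the threshold, at 0.33 (adjusted p = 0.157) at 6 weeks and 0.06 (adjusted p = 0.731) at 3 weeks. The endothelial markers moved with it, with 7 of 8 higher on the HF+SD at each time point, and their part in the difference was not tested.

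**Figure D2:**
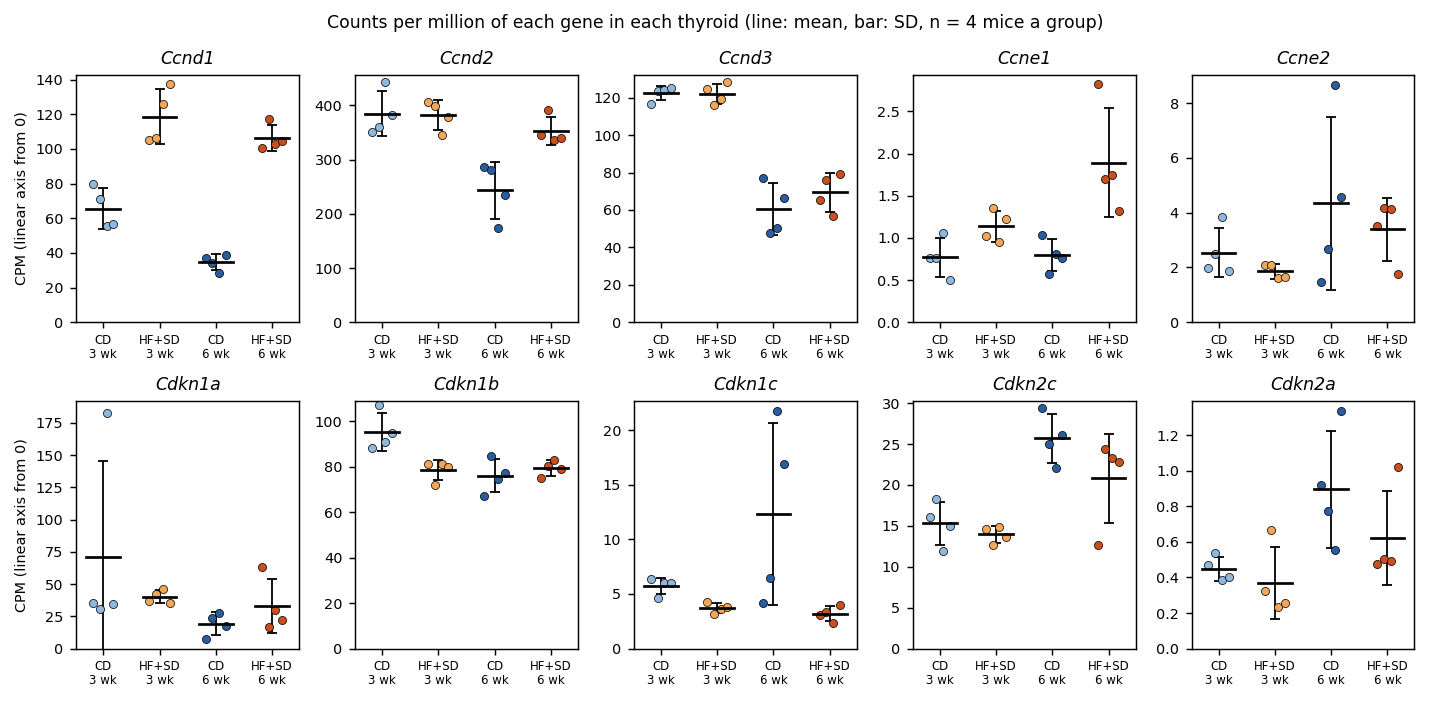
Each point is 1 mouse, with CPM on the vertical axis from 0 and the diets and weeks on the horizontal axis. The line is the mean and the bar the SD of 4 mice, and a bar that would reach below 0 is drawn to 0. The Ccnd1 values on the HF+SD lie above those on the CD at both time points, and 1 CD mouse at 3 weeks stands at 183 CPM for Cdkn1a.

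Ccnd2 encodes cyclin D2, the D-type cyclin with the most counts here. At 6 weeks it stood at 286, 280, 173 and 234 CPM in CD mice M22, M43, M45 and M48, and at 346, 391, 336 and 340 CPM in the HF+SD mice M5, M18, M34 and M35. The diets did not overlap, and M45, the mouse with the highest muscle share, was the lowest. The log2 fold change of 0.54 (SE 0.18, adjusted p = 0.0609) missed the threshold. It passed in DESeq2 (0.52, adjusted p = 0.0216), in limma (0.53, adjusted p = 0.0465), and in edgeR in the single fit of 16 libraries (0.48, adjusted p = 0.0129) and without M22 (0.63, adjusted p = 0.0297). In the model with the muscle score it was 0.30 (adjusted p = 0.358). At 3 weeks Ccnd2 stood at 351 to 444 CPM in CD mice and 345 to 407 in HF+SD mice, a log2 fold change of -0.01 (SE 0.09, adjusted p = 0.975), whose sign changed with the setting.

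Ccnd3, which encodes cyclin D3, overlapped between the diets at both time points. At 6 weeks CD mice had 47.8 to 76.9 CPM and HF+SD mice 56.7 to 79.3, a log2 fold change of 0.20 (SE 0.18, adjusted p = 0.469). At 3 weeks it stood at 117 to 125 and 116 to 128 CPM (log2 fold change -0.00, SE 0.07, adjusted p = 0.980).

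Within a library, the share of each D-type cyclin in their summed counts per kilobase of exon does not depend on the scaling between libraries. Ccnd1 made up 16.7%, 17.0%, 20.1% and 20.3% in CD mice M22, M43, M45 and M48 at 6 weeks, and 32.5% to 34.1% in the HF+SD mice. At 3 weeks its share was 16.1% to 25.0% in CD mice and 28.0% to 34.7% in HF+SD mice. The share of Ccnd1 was thus higher in each HF+SD mouse than in any CD mouse of the same time point. Ccnd2 held the largest share in every group, with 6-week means of 64.2% ± 4.33 for the CD and 55.2% ± 1.09 for the HF+SD (SD, n = 4). These shares restate the Ccnd1 counts against those of Ccnd2 and Ccnd3, and no separate test was run on them.

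**Figure D3:**
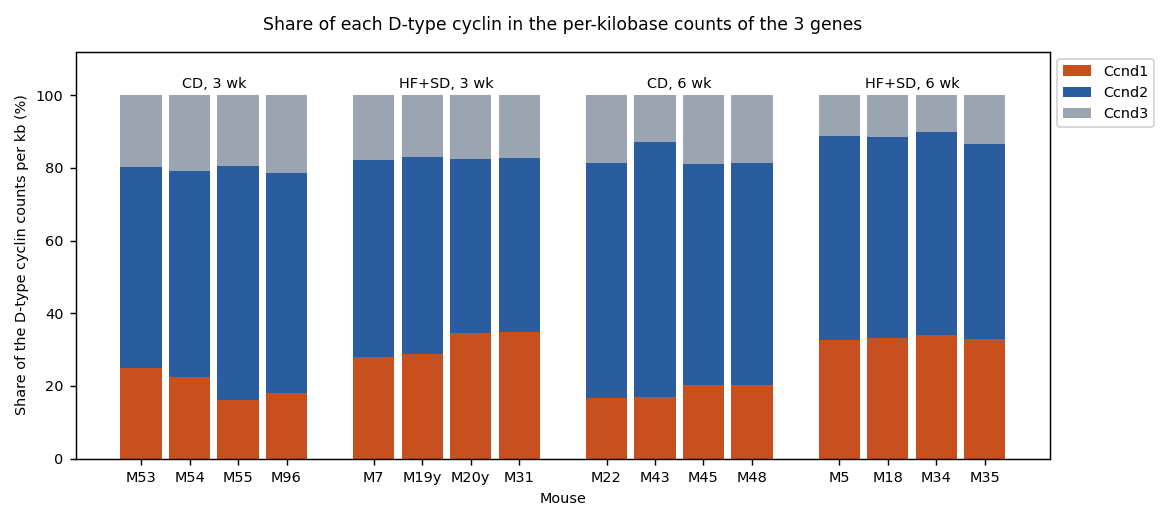
Stacked bars give, for each mouse on the horizontal axis, the percentage of the summed counts per kilobase of the 3 D-type cyclin genes that each gene took. The bottom segment, Ccnd1, averages 18.5% (CD) and 33.2% (HF+SD) at 6 weeks, and 20.3% and 31.6% at 3 weeks.

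The E-type cyclins had far fewer counts. Ccne1 (ENSMUSG00000002068.17), encoding cyclin E1, had 36, 25, 25 and 27 counts in CD mice M22, M43, M45 and M48 at 6 weeks, and 107, 54, 60 and 49 counts in the HF+SD mice M5, M18, M34 and M35. In CPM this was 0.796 ± 0.190 and 1.89 ± 0.647 (SD, n = 4), with no overlap of the diets and M5 the highest. Its log2 fold change was 1.25 (SE 0.29, adjusted p = 0.0180). It lost the call without the CD mouse M48 (1.24, adjusted p = 0.0506), without M45 and M48 together (1.26, adjusted p = 0.103) and with the muscle covariate (1.16, adjusted p = 0.0917). Scaled to thyrocyte genes it was at 0.03 (adjusted p = 0.939), and against M22, the 1 CD mouse left without M43, M45 and M48, it was at 0.87, so the fold itself was smaller in these fits. At 3 weeks the means were 0.770 ± 0.228 and 1.14 ± 0.184 CPM (SD, n = 4), the diets overlapped, and the log2 fold change of 0.57 (SE 0.26, adjusted p = 0.169) did not pass the test.

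Ccne2, encoding cyclin E2, showed a different order. At 6 weeks it stood at 1.46, 2.67, 8.67 and 4.58 CPM in CD mice M22, M43, M45 and M48, and at 3.51, 4.17, 4.13 and 1.75 CPM in the HF+SD mice M5, M18, M34 and M35. The diets overlapped, and the CD mice with the most muscle counts, M45 and M48, were the highest of all 8. This gave a log2 fold change of -0.36 (SE 0.50, adjusted p = 0.649), and it turned to 0.72 (adjusted p = 0.333) without M45 and M48. At 3 weeks the log2 fold change was -0.46 (SE 0.25, adjusted p = 0.247). No change was detectable at either time point.

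Among the CIP/KIP inhibitors, Cdkn1c (ENSMUSG00000037664.14), an imprinted gene that encodes p57, was lower on the HF+SD at both time points. At 3 weeks it stood at 6.36, 4.65, 5.97 and 6.01 CPM in the CD mice M53, M54, M55 and M96, and at 4.25, 3.15, 3.59 and 3.85 CPM in the HF+SD mice M7, M19y, M20y and M31. All CD mice were above all HF+SD mice. The log2 fold change was -0.63 (SE 0.15, adjusted p = 0.0210). It remained past the threshold in 3 of the 8 fits that left out 1 mouse (-0.72 to -0.56, largest adjusted p = 0.0646) and lost it in the single fit of all 16 libraries (-0.63, adjusted p = 0.368).

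At 6 weeks Cdkn1c stood at 4.16, 6.51, 21.7 and 16.9 CPM in CD mice M22, M43, M45 and M48, and at 3.11, 3.39, 2.33 and 3.98 CPM in the HF+SD mice M5, M18, M34 and M35. The 2 highest CD mice were those with 15.0% and 10.8% of muscle counts, and M22, with 0.0960%, stood just above the highest HF+SD mouse. The means were 12.3 ± 8.37 and 3.20 ± 0.685 CPM (SD, n = 4), with a log2 fold change of -1.94 (SE 0.49, adjusted p = 0.0226). The call was kept in 2 of the 8 fits that left out 1 mouse, those without M22 or without M43, and the adjusted p was 0.0508 to 0.0685 in the other 6. The log2 fold change was -0.73 (adjusted p = 0.147) without M45 and M48 and -0.58 (adjusted p = 0.303) with the muscle covariate. Without M43, M45 and M48 it was -0.39, a value against the 1 CD mouse left, M22, with no spread among CD mice behind it. Some markers of other cell types moved with Cdkn1c, where 9.55% of all genes were called lower at 6 weeks and 5.78% at 3 weeks. Of 8 fibroblast markers, 1 was lower at 6 weeks and 3 were higher at 3 weeks. Of 4 parathyroid markers 0 were called, with sums of 2630 to 16928 CPM (CD) and 585 to 2689 CPM (HF+SD) at 6 weeks. At 3 weeks these sums were 119 to 5146 and 64.2 to 2030 CPM. Of 6 adipocyte markers 5 were lower on the HF+SD at each time point, and their sum was 456 to 893 CPM in CD mice and 101 to 238 in HF+SD mice at 6 weeks, and 423 to 538 against 103 to 242 CPM at 3 weeks. Of 6 markers of C cells, the calcitonin cells of the thyroid, 3 were lower at each time point and 1 was higher at 3 weeks, with sums of 5919 to 11031 and 4001 to 4868 CPM at 6 weeks and 3338 to 6703 and 2733 to 4036 CPM at 3 weeks. None of the 12 adipocyte and C cell markers was at 0 in all mice of a group. The part of any of these cell types in the difference was not tested.

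**Figure D4:**
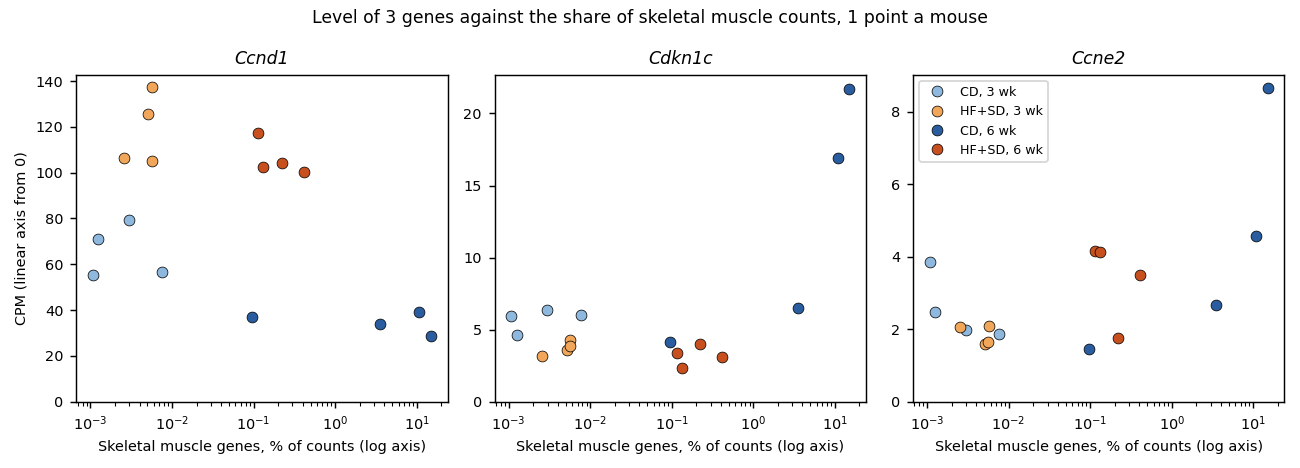
CPM of Ccnd1, Cdkn1c and Ccne2 (vertical axes, from 0) against the percentage of counts on 20 skeletal muscle genes (horizontal, log axis), with 1 point per mouse coloured by diet and weeks. Cdkn1c is at 16.9 and 21.7 CPM in the CD mice with 10.8% and 15.0% of muscle counts, whereas Ccnd1 stays between 28.6 and 39.0 CPM in all 4 CD mice at 6 weeks.

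Cdkn1b (ENSMUSG00000003031.15) encodes p27, an inhibitor held at high levels in resting cells and controlled largely by protein degradation. At 3 weeks it stood at 88.2, 107, 90.8 and 95.0 CPM in the CD mice M53, M54, M55 and M96, and at 81.3, 72.1, 81.0 and 79.8 CPM in the HF+SD mice M7, M19y, M20y and M31. The diets did not overlap, but the gap between the nearest mice was small. Cdkn1b changed by a log2 fold change of -0.28 (SE 0.08, adjusted p = 0.0481), and it was past the threshold in 1 of the 8 fits that left out 1 mouse, that without M55 (-0.30, adjusted p = 0.0273). It also lost the call with no filter, with at least 10 counts in every library, with upper-quartile factors, in the single fit of 16 libraries and with the muscle covariate, 5 fits with adjusted p of 0.0522 to 0.174. At 6 weeks the CD mice stood at 67.2 to 84.9 CPM and the HF+SD mice at 74.9 to 83.1, a log2 fold change of 0.06 (SE 0.11, adjusted p = 0.729). Per library, the ratio of Ccnd1 to Cdkn1b counts, which also does not depend on the scaling, was 0.383 to 0.549 in CD mice and 1.24 to 1.46 in HF+SD mice at 6 weeks, and 0.595 to 0.901 against 1.29 to 1.72 at 3 weeks. This ratio restates the counts of these genes given above, and no separate test was run on it.

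Cdkn1a encodes p21, a target of p53 and of growth signals. At 6 weeks it stood at 7.55, 24.0, 27.9 and 17.6 CPM in CD mice M22, M43, M45 and M48, and at 62.8, 16.8, 29.6 and 22.5 CPM in the HF+SD mice M5, M18, M34 and M35. The diets overlapped, and M5 was the highest. The diet effect was 0.77 on the log2 scale (SE 0.47, adjusted p = 0.270), 0.26 (adjusted p = 0.693) without M5, and 1.80 (adjusted p = 0.0298) with the muscle covariate. At 3 weeks the CD mice M53, M54, M55 and M96 had 35.3, 30.9, 183 and 34.6 CPM and the HF+SD mice 35.7 to 46.1. The value of M55 set the CD mean, and the log2 fold change of -0.82 (SE 0.54, adjusted p = 0.333) turned to 0.25 (adjusted p = 0.110) without M55.

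The INK4 genes passed the test at neither time point. Cdkn2c, encoding p18, stood at 22.1 to 29.4 CPM in CD mice and at 12.7, 24.4, 23.3 and 22.9 CPM in the HF+SD mice M5, M18, M34 and M35 at 6 weeks, a log2 fold change of -0.30 (SE 0.21, adjusted p = 0.326). At 3 weeks the log2 fold change was -0.13 (SE 0.13, adjusted p = 0.515). Cdkn2a, whose locus encodes both p16 and p19ARF from overlapping transcripts that a count per gene does not separate, had only 9 to 47 counts per library. Its log2 fold change was -0.52 (SE 0.36, adjusted p = 0.332) at 6 weeks and -0.28 (SE 0.37, adjusted p = 0.637) at 3 weeks, and no change was detectable at this depth.

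Per kilobase of exon, Ccnd2 was first among the 10 genes in all 4 groups, with means of 25.9 to 40.9 CPM per kilobase. On the CD, Cdkn1b came next at 16.7 ± 1.60 at 6 weeks and 20.9 ± 1.83 at 3 weeks, and Ccnd1 was the fourth at 6 weeks (7.35 ± 0.960) and the fifth at 3 weeks (13.9 ± 2.49). On the HF+SD, Ccnd1 was the second at both time points, at 22.6 ± 1.63 and 25.2 ± 3.32 CPM per kilobase (SD, n = 4), and did not overlap with its neighbours in that order, Ccnd2 and Cdkn1b. On the CD at 6 weeks it overlapped with both neighbours, Cdkn2c and Ccnd3. Ccne2, Ccne1 and Cdkn2a held the lowest 3 places in each group, at 0.289 to 1.24 CPM per kilobase, and Cdkn2a and Ccne1 exchanged places between the diets, Ccne1 being last on the CD and Cdkn2a on the HF+SD, with values that overlapped in every group but the CD at 6 weeks.

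Whether the diet effect differed between 3 and 6 weeks was asked of the interaction term, fitted over 16 libraries. edgeR called 0 of the 10 genes and 15 of 18929 genes in all (0.0792%). At an unadjusted p under 0.05 there were 4 genes. These were Ccnd1, whose log2 fold change was 0.71 (SE 0.20, adjusted p = 0.0676) larger at 6 weeks, Ccnd2 with 0.49 (SE 0.19, adjusted p = 0.145), Cdkn1b with 0.29 (SE 0.13, adjusted p = 0.195) and Cdkn1c with -1.38 (SE 0.55, adjusted p = 0.152). DESeq2 called 1 of the 10 genes, Ccnd1 (0.75, adjusted p = 0.00974), beside 9.46% of all genes, and limma called 0, beside 0.534%. Without the CD mouse M22, edgeR called 3, namely Ccnd1, Ccnd2 and Cdkn1c, beside 14.1% of all genes. M22 had the lowest muscle share of the CD mice at 6 weeks, 0.0960% beside 3.51%, 15.0% and 10.8%. Without M45, which had the highest, the interactions in edgeR were 0.64 (adjusted p = 0.127) for Ccnd1, 0.38 (adjusted p = 0.202) for Ccnd2 and -0.94 (adjusted p = 0.333) for Cdkn1c.

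Of the 23 partner genes, those for kinases, other inhibitors, pocket proteins and E2F factors, 4 rose and 2 fell at 6 weeks, and 6 rose and 0 fell at 3 weeks. The shares of all genes were 12% higher and 9.55% lower at 6 weeks and 9.07% and 5.78% at 3 weeks, so the 6-week count was near the background. E2f1 and E2f2, encoding activating E2F factors, rose at both, by log2 fold changes of 0.81 (adjusted p = 0.0189) and 0.99 (adjusted p = 0.0134) at 6 weeks and 0.84 (adjusted p = 0.00538) and 1.25 (adjusted p = 0.0109) at 3 weeks. Cdkn3, which encodes a phosphatase acting on CDKs, rose at both as well (2.80 and 1.60). The repressor genes E2f7 (2.38, adjusted p = 0.000889) and E2f8 (1.41, adjusted p = 0.00950) rose at 6 and at 3 weeks, respectively. E2f7 was at 0.99 (adjusted p = 0.0903) at 3 weeks and E2f8 at 0.23 (adjusted p = 0.739) at 6 weeks.

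Named after their values were seen, Cdk4 rose at 3 weeks (0.30, adjusted p = 0.0345) and Cdk6 fell at 6 weeks (-0.48, adjusted p = 0.0339). Neither passed at the other time point, where the direction was the same. Cdk4 was at 0.37 (adjusted p = 0.113) at 6 weeks and Cdk6 at -0.58 (adjusted p = 0.0602) at 3 weeks. Cdk2 was at 0.36 (adjusted p = 0.264) at 6 weeks and 0.01 (adjusted p = 0.962) at 3 weeks. The pocket protein genes Rb1, Rbl1 and Rbl2 did not pass the test at either time point, at -0.17 to 0.17. The other calls were E2f6, lower at 6 weeks (-2.13), and Cdkn2d, which encodes the INK4 protein p19, higher at 3 weeks (0.55, adjusted p = 0.0350). E2f6 was at -0.19 (adjusted p = 0.206) at 3 weeks and Cdkn2d at 0.30 (adjusted p = 0.320) at 6 weeks. Without M45 and M48, 3 of the 23 were called at 6 weeks instead of 6, and 10.4% of all genes were called.

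Of 25 E2F targets of S phase, 7 rose and 0 fell at 6 weeks and 9 rose and 0 fell at 3 weeks, with list medians of 0.37 and 0.22. Of all genes tested, 12% were higher and 9.55% lower at 6 weeks, and 9.07% and 5.78% at 3 weeks. Rrm2, a subunit of ribonucleotide reductase, rose by 2.33 and 2.93 on the log2 scale at 6 and 3 weeks, and Mcm5 also rose at both. Mcm2 rose at 3 weeks (0.75) and was at 0.41 (adjusted p = 0.172) at 6 weeks. Without M45 and M48 the count of E2F targets called at 6 weeks was 2, beside 10.4% of all genes. All 10 genes of S, G2 and M phase rose at both time points, with medians of 2.88 and 2.68, and Mki67, expressed in cycling cells, went from 4.34 ± 1.18 to 38.1 ± 9.75 CPM at 6 weeks and from 3.13 ± 1.58 to 23.2 ± 3.21 CPM at 3 weeks (SD, n = 4). Without M45 and M48, 9 of these 10 were called at 6 weeks. Top2a, with a log2 fold change of 3.16 and 2.61 at 6 and 3 weeks, and Ccnb2, with 2.57 and 2.82, had the same direction at both time points.

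Among 17 tested cyclin genes outside G1, 4 rose and 0 fell at 6 weeks, and 4 rose and 1 fell at 3 weeks. For this list and the next 2, the shares of all genes were 12% higher and 9.55% lower at 6 weeks, and 9.07% and 5.78% at 3 weeks. The risers at both were the mitotic and S phase cyclins Ccna2, Ccnb1, Ccnb2 and Ccnf, and the list medians were 0.02 and -0.02. Of 12 genes listed for the ubiquitin ligases that degrade G1 cyclins and CDK inhibitors, 2 rose and 3 fell at 6 weeks, and 1 rose and 0 fell at 3 weeks. Without M45 and M48, 3 were called in all at 6 weeks, beside 10.4% of all genes. Dtl, the receptor of the ligase that removes p21 in S phase, rose at both (1.68 and 2.31). Cks2, counted in this list beside Cks1b though not itself a ligase subunit, rose at 6 weeks (1.06, adjusted p = 0.00568). At 3 weeks Cks2 was at 0.54 (adjusted p = 0.0603). Cks1b, named after its value was seen, did not pass the test at 6 weeks (0.56, adjusted p = 0.089). Fbxw7, which encodes the receptor for cyclin E, fell at 6 weeks, from 32.5 to 65.2 CPM in CD mice to 20.9 to 28.1 CPM in HF+SD mice (log2 fold change -1.03, adjusted p = 0.00918), and was at -0.13 (adjusted p = 0.495) at 3 weeks. Of 20 p53 targets other than Cdkn1a, 1 rose (Tnfrsf10b) and 1 fell (Phlda3) at 6 weeks, and 0 rose and 3 fell (Phlda3, Pmaip1 and Perp) at 3 weeks. Counts this small in the ubiquitin ligase and p53 lists are not read as a shift of either list.

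Scaled to thyrocyte genes, 83.3% of all genes were called lower at 6 weeks and 75.6% at 3 weeks, and 1.92% and 1.94% higher. The lists moved with this shift. At 6 weeks 18 of the 25 E2F targets were lower and 1 higher, 18 and 2 of the partners, 10 and 0 of the ubiquitin ligase genes, 12 and 3 of the other cyclins and 17 and 0 of the p53 targets, and at 3 weeks 14 E2F targets were lower and 2 higher. Of the 10 genes of S, G2 and M phase, 9 were called higher and 0 lower at 6 weeks, and 10 higher at 3 weeks. Counts also moved when 1 mouse was left out, as did the share of all genes called (10.4% to 30.8% at 6 weeks and 8.27% to 19.4% at 3 weeks). At 6 weeks the 7 E2F targets called were 11 without M22, 3 without M45, M18 or M34 and 4 without M48. The 6 partners were 3 without M48 or M34, the 5 ubiquitin ligase genes were 3 without M48, M5 or M35 and 2 without M18 or M34, and the 2 p53 targets were 7 without M22. The 6 partners called at 3 weeks were 3 without M96, M19y, M20y or M31, the 3 p53 targets were 1 without M53, M96, M7, M20y or M31, and the 1 ubiquitin ligase gene became 3 without M54 and 2 without M55.

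**Figure D5:**
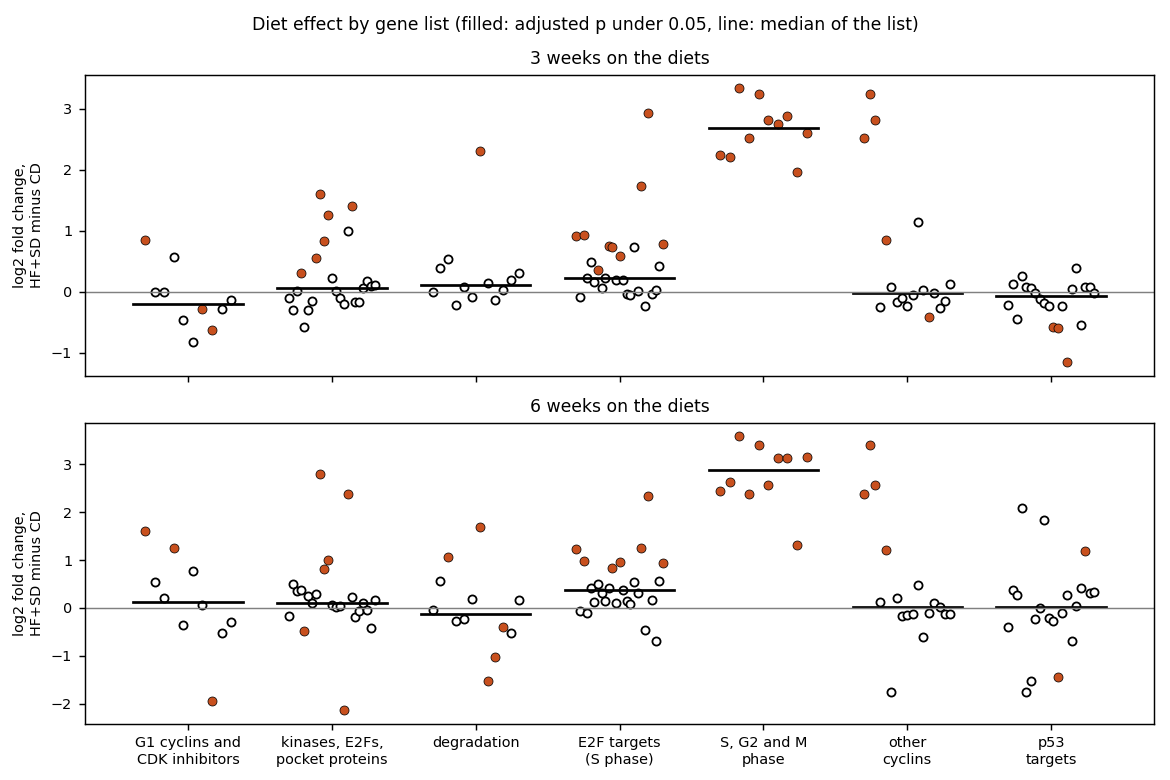
Each point is 1 gene, with its log2 fold change, HF+SD minus CD, on the vertical axis and the gene list on the horizontal axis, at 3 weeks above and 6 weeks below. Filled points have an adjusted p under 0.05, and the line is the median of the list, 2.68 and 2.88 for the genes of S, G2 and M phase and -0.21 and 0.13 for the G1 cyclins and CDK inhibitors.

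For each gene called at 6 weeks, the genes with the nearest pattern were sought by the root mean square difference of log2 CPM, centred within each time point, over 16 libraries and 17024 genes. For Ccnd1 these were Thsd1 (0.133) and Emcn (0.158), both known as endothelial genes. For Ccne1 they were 4933407K13Rik (0.213) and Srd5a1 (0.246). For Cdkn1c they were Mapk12 (0.191), a kinase gene of skeletal muscle, and Crat (0.200), which encodes carnitine acetyltransferase. The SD of the members' own values on that scale was 0.67, 0.56 and 0.81 for Ccnd1, Ccne1 and Cdkn1c.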

How the data were processed

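The authors deposited a table of raw counts per gene (whole numbers, no normalization) and a table of the same counts divided by 1 size factor per library, a normalized signal. The submitters' notes name Trim Galore 0.6.7, STAR, DESeq2 1.36.0, R 4.1.0 and the build mm39. For the counting tool, the annotation and the filter behind the 21640 rows, the record is: not given in the sources used here. Poly(A) RNA was read as pairs. Genes were matched by Ensembl identifier to GENCODE M21 for symbols and exon length. All 4 deposited mice per group were used, although the study describes fewer CD mice at 6 weeks.

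Diets were compared within a time point on the deposited counts with edgeR 4.0.16 in R 4.3.3 (TMM, filterByExpr by group, quasi-likelihood test, Benjamini-Hochberg adjustment over all tested genes, threshold 0.05). The SE is the absolute log2 fold change over the square root of F. The interaction was fitted over 16 libraries. Single members were compared by an exact permutation test on log2 CPM (prior count 2). The scripts were tested on simulated data. The mice are separate animals, and p-values rest on the spread between them, which edgeR moderates across genes. The study housed mice together, and the labels do not say which mice shared a cage. A cage effect was therefore not tested. The chi-square of counts was 15.1 to 871 per gene between mice of a group.

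Alternatives were DESeq2 1.42.0, its size factors in edgeR, upper-quartile factors, thyrocyte scaling, no filter, at least 10 counts in every library, limma 3.58.1 on log2 of the deposited normalized signal plus 1, a single fit of 16 libraries, a muscle covariate, a fold minimum and each mouse left out. The members and lists were chosen with earlier results of these data known. Companion genes named were the 3 of lowest p at 6 weeks and the 2 at 3 weeks in each list, plus the nearest patterns. Skp1 and Ccnb3 were not matched, and Ccna1 and Ccno were not tested.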

Additional observations from a re-analysis of the deposited data

Results flagged for a closer look

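In 5 of the 40 combinations of a gene and a group, 1 mouse stood apart from the other 3 in log2 CPM, by a gap above Dixon's 95% critical value for its share of the group's range. Chance gives about 1 in 20. The largest were Cdkn2a in the HF+SD mouse M35 at 6 weeks, the highest of its group, with a gap of 0.930 of the range, and Cdkn1a in the CD mouse M55 at 3 weeks, the highest, with 0.924. For Cdkn2a the levels were 1.02 CPM in M35 and 0.475 to 0.502 CPM in the other 3. Cdkn1a stood at 183 CPM in M55 and 30.9 to 35.3 CPM in the other 3. Counted after that value was seen, 12 of 20 p53 targets other than Cdkn1a were highest in M55 among the 4 CD mice at 3 weeks. Their summed level in M55, 696 CPM, lay within the 683 to 798 CPM of the other 3. The share of all genes that were highest in M55 was not counted, so the 12 of 20 is not read as a trait of p53 targets.

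Cdkn2c was lowest in the HF+SD mouse M5 at 6 weeks, with a gap of 0.899 of the range (12.7 CPM against 22.9 to 24.4 CPM). M5 also had the highest Cdkn1a (62.8 CPM) and Ccne1 (2.82 CPM) of that group. Cdkn1b was lowest in the HF+SD mouse M19y at 3 weeks (0.848 of the range), at 72.1 CPM against 79.8 to 81.3 CPM. Ccnd3 was lowest in the CD mouse M53 at 3 weeks (0.842 of the range), at 117 CPM against 124 to 125 CPM.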

How the results depend on the processing

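No paired analysis was possible because the groups share no mouse numbers. The number of the 10 genes called at 6 weeks was 3, beside 21.5% of all genes. Under thyrocyte scaling it was 7, beside 85.2%. It was 1 without the CD mice M45 and M48, beside 10.4%, a choice made after seeing the data. Leaving out M43, M45 and M48 was also chosen then, and it leaves 1 CD mouse, assumed to vary like the HF+SD mice. When 1 mouse was left out the number was 1 to 4, beside 10.4% to 30.8% of all genes. It was 1 without M48 and 2 without M45, M5, M18, M34 or M35. At 3 weeks the 3 called stood beside 14.9% of all genes. They were 8 under thyrocyte scaling (77.6%), 1 in the single fit of 16 libraries (7.5%) and 0 with the fold minimum (4.66%). When 1 mouse was left out they were 1 to 3 (8.27% to 19.4%), with 1 without M53, M96, M19y, M20y or M31. For the interaction the 0, beside 0.0792% of all genes, became 1 in DESeq2 (9.46%). It was 0 to 3 when 1 mouse was left out (0.00515% to 14.1%). The share of all genes called thus moved between these fits as well.

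Of all genes, 3927 were called at 6 weeks, against 15550 under thyrocyte scaling, 6182 in the single fit, 2024 with the muscle covariate, 2308 with the fold minimum, 1957 without M45 and M48, 1016 without the 3 CD mice, and 1934 to 5743 when 1 mouse was left out. At 3 weeks the 2560 became 13370, 1420, 1632 and 803 under the first 4 of these and 1448 to 3393 when 1 mouse was left out. The 15 of the interaction became 1790 in DESeq2, 92 with its size factors in edgeR, 703 under thyrocyte scaling, 150 with at least 10 counts in every library, 101 in limma and 1 to 2715 when 1 mouse was left out.

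Signs turned for genes that were not called in the main fit. Under thyrocyte scaling in edgeR, some passed the threshold at 6 weeks in the turned direction, beside 83.3% of all genes called lower. These were Ccnd2 at -0.72 (adjusted p = 0.0145), Ccnd3 at -1.06 (adjusted p = 0.00132) and Cdkn1b at -1.25 (adjusted p = 0.00103). Cdkn1a, at -0.58 (adjusted p = 0.349), did not pass. Under the same scaling Ccne1 at 3 weeks was at -0.23, and the interactions of Ccnd3, Ccne2 and Cdkn1b were -0.26, -0.53 and -0.18. With the muscle covariate Ccnd3 was at -0.0021 and Ccne2 at 0.96 at 6 weeks, and Ccnd2 at 0.046 and Cdkn1a at 0.14 at 3 weeks. Ccne2 was at 0.72 without M45 and M48, and without the 3 CD mice Ccne2 was at 1.20 and Ccnd3 at -0.15. At 3 weeks Ccnd2 and Ccnd3 were at 0.0025 and 0.0050 with at least 10 counts in every library and at 0.012 and 0.012 with upper-quartile factors, and the interaction of Ccne2 was at -0.0011 under the former. Leaving out 1 mouse gave -0.052 to 0.069 for Ccnd2, -0.030 to 0.019 for Ccnd3 and -1.07 to 0.25 for Cdkn1a at 3 weeks, -0.64 to 0.20 for Ccne2 at 6 weeks, and interactions of -0.25 to 0.63 for Ccne2 and -0.63 to 0.17 for Cdkn2a. The causes were not tested.

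Of 596 other fits of a member's log2 fold change, 505 kept direction and side of the threshold, 37 lost the call, 18 gained it and 36 turned. The fold minimum is counted among them, although it is the main fit with a stricter threshold. A fit that turned was counted only as such, also where it passed the threshold. With at least 10 counts in every library, Cdkn2a gave no value at 3 weeks and for the interaction, and DESeq2 gave Cdkn1a no adjusted p for the same 2. Ccnd1 kept its sign in every fit, and Cdkn1c was lower in every fit. The 9 to 47 counts of Cdkn2a and the 21 to 107 of Ccne1 limit what can be seen for them.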
